A study of Drosophila melanogaster with 16 samples.

Results

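The genes described here are the aminoacyl-tRNA synthetase genes of Drosophila melanogaster, taken as every gene with a single current symbol made of a three-letter amino acid code and RS, with or without the suffix -m, together with GluProRS. The rule found 30 genes, covered by 32 probe sets, because TrpRS alone has more than 1. The array holds 17104 genes when each probe set without a single symbol is counted as 1 gene. A symbol without the suffix was counted as cytosolic (16 genes) and a symbol with -m as mitochondrial (14 genes). The class rests on the symbol alone. AlaRS, GlnRS, GlyRS, HisRS, LysRS and ThrRS have no -m partner among the 30 genes, and whether their products also serve mitochondria was not assessed. AspRS, MetRS and AlaRS-m follow the rule by name but were not analysed here. The genes are spread over the arms 2L (6), 2R (6), 3L (9), 3R (6) and X (3), and GluRS-m and TyrRS are neighbours on 3L in the RefSeq gene table.

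Expression was measured in the heads of Berlin males 2 to 4 days old, on Affymetrix Drosophila 2.0 arrays. The ethanol arm received vapor of 60% saturation for 30 min and was frozen straight after it or after 30, 60 and 90 min or 120, 180 and 210 min of recovery, with 1 array for each time (7 arrays). The air arm received humidified air for as long and was frozen at the same times (7 arrays), and 2 arrays (A and B) came from independent groups of flies with no exposure. Each exposed array held RNA from 3 groups of 200 flies joined before extraction, so the spread between pools of 1 exposure and time was not measured. The sources used here do not make clear how many groups each unexposed array pools, or whether ethanol and air flies of the same time were handled together. Whole heads hold eye, brain, glia and fat body together, and fewer cells of a type cannot be told apart from less RNA per cell.

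Aminoacyl-tRNA synthetases join each amino acid to its tRNA, the step that fixes the genetic code in translation. Animal cells keep separate sets of these enzymes for cytosolic ribosomes and for mitochondria, most of them encoded by different nuclear genes, and the bifunctional GluProRS charges tRNAs with both glutamate and proline in the cytosol. Several cytosolic enzymes sit together in a multi-synthetase complex held by the AIMP scaffold proteins. In people, variants in several of these genes, among them those for the glycyl and tyrosyl enzymes, cause inherited neuropathies. In yeast and mammals, uncharged tRNA activates the kinase Gcn2, whose output includes more ATF4 protein (crc in the fly) and, in mammals, more transcription of many synthetase genes.

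All values are log2 expression values. A gene was kept for testing if 3 or more of the 16 arrays had it at log2 4 or above, which held for 26 of the 30 genes (all 16 cytosolic and 10 mitochondrial) and for 8110 genes of the array. Of these 8110, 7104 carry a single symbol, and the rest are probe sets without one, counted as genes in the shares below. The arrays were not level with each other: the median kept gene stood 0.16 above the unexposed mean in the ethanol array of 0 min and 0.22 above it in the air array of 180 min, and unexposed A stood 0.13 above unexposed B. Transcripts of body tissues marked 4 arrays. Of 22 male reproductive tract markers on the array 13 were kept, and their mean lay above the unexposed mean by 6.35, 4.68 and 5.26 in the air arrays of 0, 60 and 120 min and by 2.58 in the ethanol array of 120 min, against -0.03 to 0.06 in the others. The 8 kept of 20 gut markers lay 4.04 to 5.13 above it in the same air arrays and 4.29 above it in the same ethanol array, and the 6 kept of 17 testis markers 2.09 to 2.48 and 1.74. Of all 22 male reproductive tract markers, 16, 12 and 13 reached log2 4 in those air arrays and 8 in that ethanol array. In each of the remaining arrays 0 of 22 did, so the 13 kept passed the filter only through the marked arrays. The size of their rise there is partly set by this choice, and the gut and testis markers passed the same filter. Of 12 head markers, trp, trpl, inaD, repo and nSyb were high throughout, elav spanned 6.90 to 9.90, and brp (3.30 to 3.67) and para (3.15 to 4.63) were low on this array. The olfactory genes lush (6.35 to 9.10) and Orco (2.77 to 5.58) fell in ethanol against air in limma, with differences of -1.76 (adjusted p = 0.0333) and -1.46 (adjusted p = 0.0392). The mean of the 10 kept head markers differed from the unexposed mean by -0.45 to -0.24 in the ethanol arrays from 30 min on, beside -0.22 to 0.14 in the air arrays. This mean includes lush and Orco. Between ethanol and air 7 of the 10 markers were above 0, and those other than lush and Orco ran from -0.04 (nSyb) to 0.20 (elav). The part of the head marker mean in the results below was not tested.

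No aminoacyl-tRNA synthetase gene passed the test between ethanol and air, in which each ethanol array was set against the air array of its own time. In limma, 0 of 26 genes were called at adjusted p < 0.05, beside 0.691% of all 8110 genes, and 2 of 26 had an unadjusted p under 0.05, beside 12.1% of all genes. The mean difference was above 0 for 13 genes and below 0 for 13, with a median of -0.00, against -0.01 over all kept genes. The 95% interval of every one of the 26 mean differences lay within 1.5-fold either way, the outermost bounds being -0.40 and 0.33 on the log2 scale. None of the 26 was higher at 7 of 7 times and none was lower at 7 of 7, beside 2.28% and 1.55% of all kept genes.

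**Figure D1:**
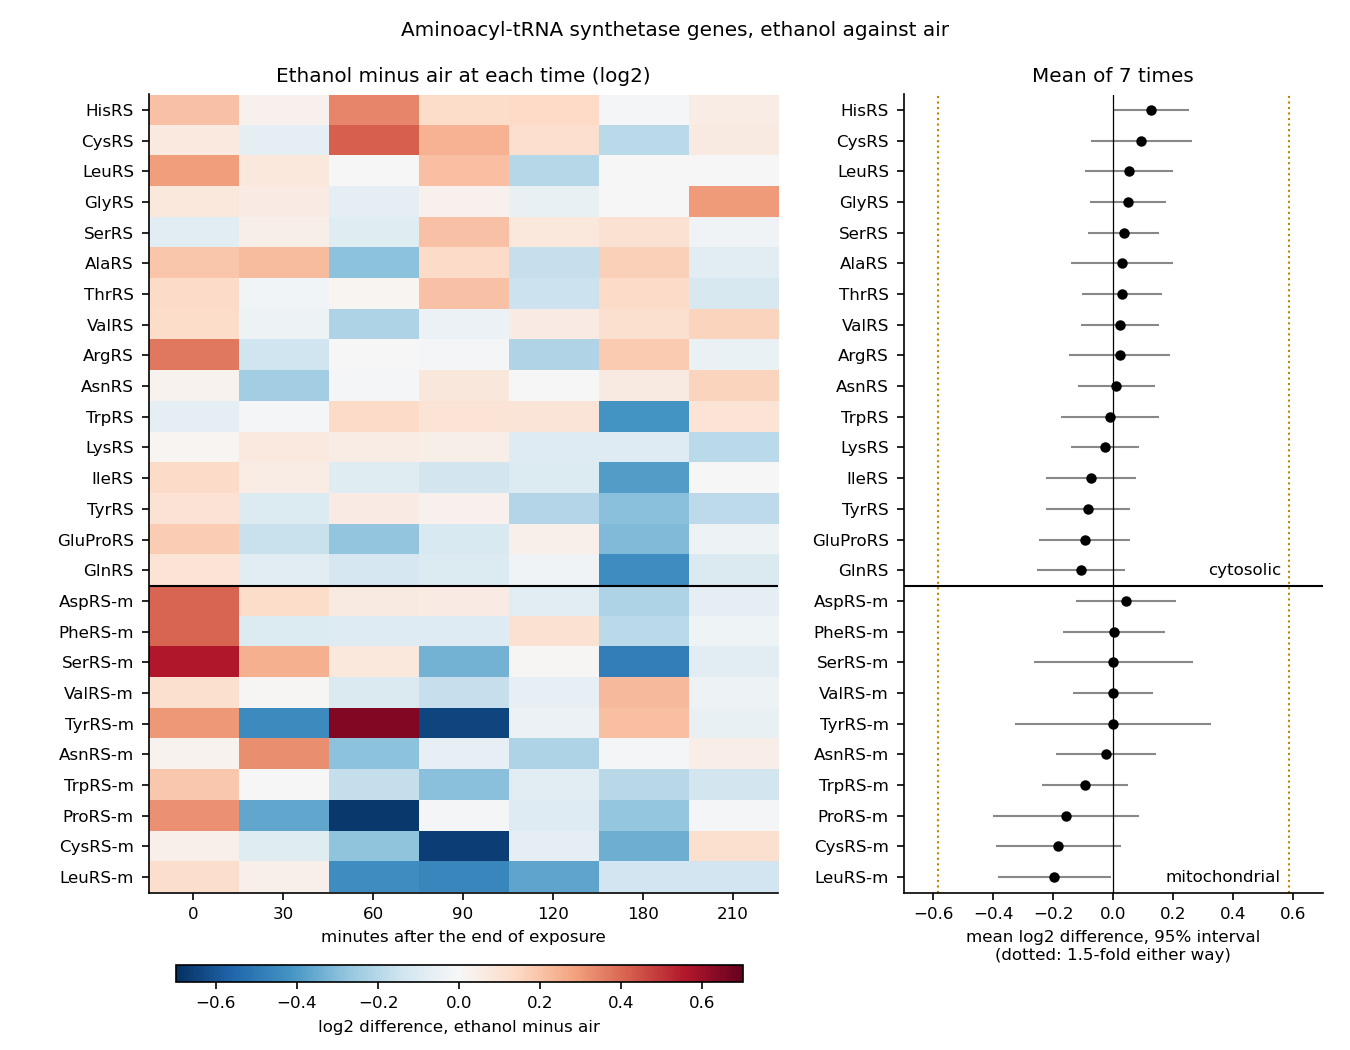
Log2 difference between the ethanol and the air array at each time after exposure (left, colour) and the mean of the 7 differences with its 95% interval (right, points and lines), for 16 cytosolic and 10 mitochondrial genes ordered by mean difference within each class. All intervals lie inside the dotted lines at 1.5-fold, the largest single differences are at 60 and 90 min, and the column at 0 min is above 0 for all members but SerRS and TrpRS.

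Among the cytosolic enzymes, 10 of 16 mean differences were above 0, with a median of 0.02. HisRS, which charges tRNA with histidine, spanned 7.15 to 7.47 in ethanol arrays (median 7.24) and 7.03 to 7.26 in air arrays (median 7.15). The ranges overlapped, but ethanol was higher at 6 of 7 times, and the 180 min pair differed by -0.01. The mean difference was 0.13 (SE 0.06, adjusted p = 0.412), 0.06 with a covariate for the body-tissue transcripts and 0.05 without the 0, 60 and 120 min pairs. CysRS, the cysteinyl enzyme, lay between 7.58 and 7.99 in ethanol arrays (median 7.85) and between 7.49 and 8.04 in air arrays (median 7.72). Ethanol was higher for CysRS at 5 of 7 times, most at 60 min (0.42) and 90 min (0.24), and the mean difference was 0.09 (SE 0.07, adjusted p = 0.682). It was 0.04 without the 60 min pair, 0.14 without the 180 min pair, 0.03 with a covariate for the body-tissue transcripts and 0.01 without the 0, 60 and 120 min pairs.

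GlyRS, the glycyl enzyme, had 7.0 to 7.39 in ethanol arrays (median 7.12) and 7.0 to 7.19 in air arrays (median 7.10). Its values nearly coincided except at 210 min, when ethanol was higher by 0.30, and the mean difference was 0.05 (SE 0.06, adjusted p = 0.792), and 0.01 without that pair. GlnRS, the glutaminyl enzyme, had 7.68 to 8.11 in ethanol arrays (median 7.87) and 7.83 to 8.11 in air arrays (median 8.01). Ethanol was lower for GlnRS at 6 of 7 times, with a mean difference of -0.11 (SE 0.06, adjusted p = 0.555). The largest of these differences, -0.43, was at 180 min, the time at which the median kept gene itself differed by -0.17, and without that pair the mean difference was -0.05.

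The remaining 12 cytosolic genes had mean differences between -0.10 (GluProRS) and 0.05 (LeuRS). Of the enzymes that animals hold in the multi-synthetase complex, GluProRS (-0.10), IleRS (-0.07) and LysRS (-0.03) stood with GlnRS below 0, and LeuRS (0.05) and ArgRS (0.02) above it. TyrRS, the tyrosyl enzyme, had a mean difference of -0.08. SerRS, AlaRS, ThrRS, ValRS, AsnRS and TrpRS, named for their amino acids, lay between -0.01 and 0.03. TrpRS is read by 3 probe sets, of which 2 were well expressed, with mean differences of -0.01 and 0.03. IleRS, ThrRS and ValRS are read by probe sets of the kind that can also match other transcripts, so their values are less certain.

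Of the mitochondrial enzymes, 3 of 10 mean differences were above 0, and the median was -0.01. LeuRS-m, the mitochondrial leucyl enzyme, spanned 6.74 to 7.49 in ethanol arrays (median 7.01) and 6.97 to 7.62 in air arrays (median 7.26). Ethanol was lower at every time from 60 min on and higher at 0 and 30 min, and the mean difference was -0.20 (SE 0.08, adjusted p = 0.399). Against the unexposed arrays the LeuRS-m difference was 0.01 after ethanol and 0.21 after air (SE 0.18 for both). CysRS-m, the mitochondrial cysteinyl enzyme, spanned 7.07 to 7.83 in ethanol arrays (median 7.56) and 7.50 to 7.90 in air arrays (median 7.73). The ethanol arrays of 60 and 90 min lay below all air arrays, and the mean difference was -0.18 (SE 0.09, adjusted p = 0.459), and -0.10 without the 90 min pair. ProRS-m, the mitochondrial prolyl enzyme, was lower in ethanol at 6 of 7 times, with a mean difference of -0.16 (SE 0.11, adjusted p = 0.613).

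TrpRS-m had a mean difference of -0.09, and AsnRS-m, TyrRS-m, ValRS-m, SerRS-m, PheRS-m and AspRS-m lay between -0.03 and 0.04. TyrRS-m, whose mean difference was -0.00 (SE 0.14), was the least even of all members, with differences of 0.65 at 60 min and -0.64 at 90 min. Without the pairs of 0, 60 and 120 min, whose air arrays carried body-tissue transcripts, the mitochondrial median was -0.16, and with a body-tissue covariate it was -0.17. Under quantile scaling it was 0.01, and with median scaling 5 of 10 genes were above 0. The cytosolic count stayed at 10 of 16 under both scalings.

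Split by recovery time, the mitochondrial genes departed from the median gene most at 60 and 90 min. In the middle window (60 and 90 min together), 8 of 10 mitochondrial and 7 of 16 cytosolic mean differences were below 0, with medians of -0.15 and 0.04, against -0.01 over all kept genes. These counts were the same under median scaling, and 8 of 10 and 6 of 16 under quantile scaling. In limma 0 of 26 members and 0% of all genes were called in this window. At an unadjusted p under 0.05 there were 3 members, beside 10.4% of all genes.

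The 3 genes were LeuRS-m, CysRS-m and CysRS. LeuRS-m had 6.83 and 6.74 in the ethanol arrays of 60 and 90 min, against 7.26 and 7.19 in the air arrays. Both ethanol values lay below every air and unexposed array, and the difference was -0.45 (SE 0.10, adjusted p = 0.185). CysRS-m had 7.22 and 7.07 in the ethanol arrays, against 7.50 and 7.73 in the air arrays, a difference of -0.47 (SE 0.14, adjusted p = 0.307). CysRS went the other way, with 7.91 and 7.89 in the ethanol arrays, against 7.49 and 7.65 in the air arrays, a difference of 0.33 (SE 0.11, adjusted p = 0.367).

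The 60 min air array is one of those with body-tissue transcripts and the 90 min air array is not, and the part of these transcripts in the results was not tested beyond the following values. At 90 min alone the differences were -0.46 for LeuRS-m, -0.66 for CysRS-m and 0.24 for CysRS. With a body-tissue covariate they were -0.45, -0.56 and 0.26 in the same order. CysRS-m was called in 1 of 17 alternative settings, the fit with time as a linear term in place of the matched pairs (adjusted p = 0.0397).

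**Figure D2:**
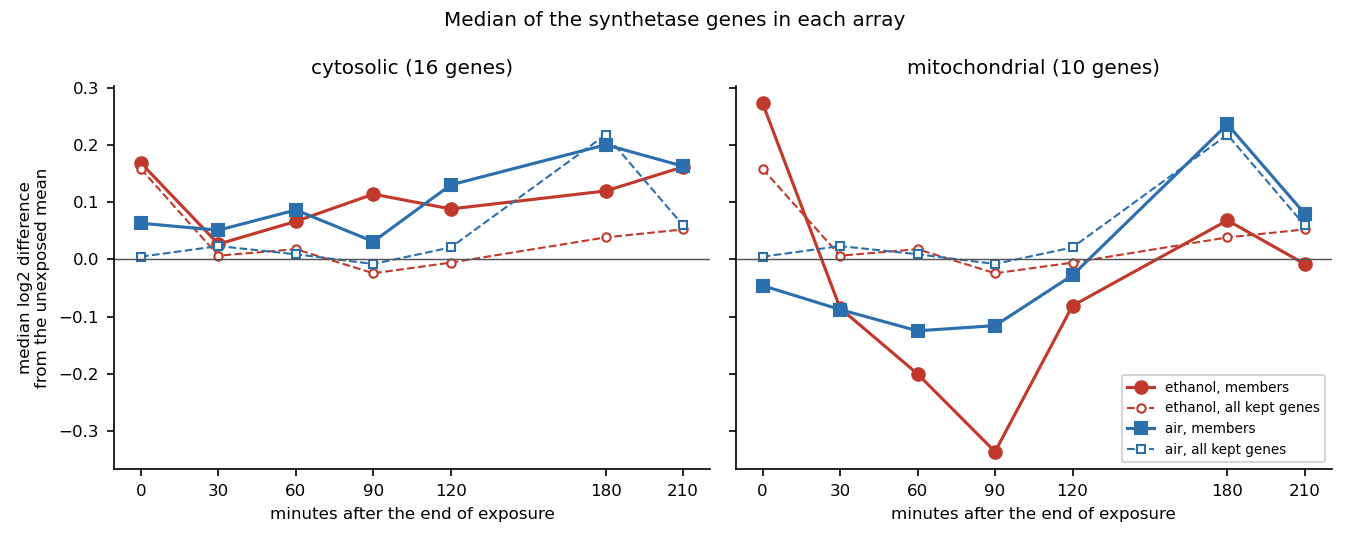
Median log2 difference from the unexposed mean in each ethanol (circles) and air (squares) array over minutes after exposure, for 16 cytosolic and 10 mitochondrial genes (filled) and for all kept genes (open, dashed). The mitochondrial median reaches -0.34 in the ethanol array of 90 min, against -0.12 in the air array, and the arrays of ethanol 0 min and air 180 min stand high for all genes.

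By single time points, the mitochondrial median of ethanol minus air was 0.25 at 0 min, 0.01 at 30 min, -0.13 at 60 min and -0.23 at 90 min. It was then -0.07 at 120 min, -0.19 at 180 min and -0.04 at 210 min. Ethanol was higher for 10 of 10 mitochondrial genes at 0 min, beside 78.0% of all kept genes, and for 1 of 10 (AspRS-m) at 90 min. The median of all kept genes was itself 0.15 at 0 min and -0.17 at 180 min, but only -0.01 at 90 min, when 47.9% of all genes were higher in ethanol. The cytosolic median kept between -0.04 and 0.11 at all 7 times, with 14 of 16 genes higher in ethanol at 0 min, beside the same 78.0%.

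The early window (0 and 30 min) and the late window (120, 180 and 210 min) held no called member. On simulated data the early, middle and late window tests called 1%, 1% and 11% of changes of log2 0.5. A missing call in a window therefore does not show that such a change was absent. In limma 0 of 26 were called in the early window, beside 0.037% of all genes, and 0 of 26 in the late window, beside 0.949%. At an unadjusted p under 0.05 there were 2 members in each, beside 6.18% of all genes early and 12% late. These were AspRS-m (0.27, SE 0.10, adjusted p = 0.753) and SerRS-m (0.40, SE 0.16, adjusted p = 0.785) early, and TyrRS (-0.23, SE 0.08, adjusted p = 0.306) and LeuRS-m (-0.21, SE 0.08, adjusted p = 0.377) late. As deposited, 13 of 16 cytosolic genes were above 0 in the early window and 5 of 16 in the late one, but median scaling turned these counts to 5 and 10.

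A line through the 7 ethanol minus air differences gave no called member either, with 0 of 26 in limma beside 0.678% of all genes, and 2 at an unadjusted p under 0.05, beside 15.5%. SerRS-m, the mitochondrial seryl enzyme, had 6.93 in the ethanol array of 0 min, against 6.37 in the air array, and 6.27 in the ethanol array of 180 min, against 6.75 in the air array. The differences were 0.56, 0.25, 0.07, -0.33, 0.01, -0.48 and -0.07 in order of time, so that ethanol was lower at 90, 180 and 210 min. The slope was -0.20 per hour (SE 0.07, adjusted p = 0.255), -0.14 without the 0 min pair and -0.31 without the 210 min pair (adjusted p = 0.0935). AspRS-m, the mitochondrial aspartyl enzyme, had a slope of -0.13 per hour (SE 0.04, adjusted p = 0.220). Both slopes rest partly on the 2 arrays that stood high as a whole, and under median scaling they were -0.14 and -0.07 per hour. The number of cytosolic genes with a slope above 0 was 4 of 16 as deposited and 11 of 16 under median scaling.

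Set against unexposed heads, most cytosolic genes had mean levels above the unexposed mean after both exposures, and most mitochondrial genes had mean levels below it, with no gene passing the test. The ethanol and air comparisons share the 2 unexposed arrays, so their values are given side by side and are not independent. The mean difference from unexposed was above 0 for 14 of 16 cytosolic genes after ethanol and for 14 of 16 after air, with medians of 0.13 and 0.11, against 0.04 and 0.05 over all kept genes. For mitochondrial genes it was above 0 for 4 of 10 after ethanol and 4 of 10 after air, with medians of -0.08 and -0.01. Under median scaling the counts were 12 of 16 for cytosolic genes in both arms, 1 of 10 for mitochondrial genes after ethanol and 2 of 10 after air. In limma 0 of 26 members were called after ethanol, beside 0.715% of all genes, and 0 of 26 after air, beside 0% of all genes. At an unadjusted p under 0.05 there were LysRS and HisRS after ethanol, beside 11.1% of all genes, and LysRS and TyrRS after air, beside 6.41%.

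LysRS, the lysyl enzyme, had 8.54, 8.56, 8.59, 8.54, 8.51, 8.64 and 8.74 in the ethanol arrays in order of time. It had 8.53, 8.49, 8.53, 8.50, 8.60, 8.73 and 8.93 in the air arrays, and 8.30 and 8.16 in unexposed A and B. Every exposed array lay above both unexposed arrays. The difference was 0.36 (SE 0.10, adjusted p = 0.135) for ethanol and 0.39 (SE 0.10, adjusted p = 0.309) for air, and 0.29 and 0.32 without unexposed B.

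HisRS had 7.08 and 6.94 in unexposed A and B, and all 7 ethanol arrays and 6 of 7 air arrays lay above both. The HisRS difference was 0.26 (SE 0.09, adjusted p = 0.211) for ethanol and 0.14 (SE 0.09, adjusted p = 0.908) for air. TyrRS had 9.22 to 9.48 in ethanol arrays (median 9.33) and 9.32 to 9.58 in air arrays (median 9.42), against 9.19 and 9.18 in the unexposed arrays. Neither exposed range of TyrRS overlapped the unexposed pair, and the differences were 0.15 (SE 0.08, adjusted p = 0.584) for ethanol and 0.23 (SE 0.08, adjusted p = 0.586) for air.

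SerRS, the cytosolic seryl enzyme, also lay above both unexposed arrays (8.68 and 8.66) in all 7 ethanol and all 7 air arrays, in several of them by less than the distance between the 2 unexposed medians. In all, 4 of 26 members had all 7 ethanol arrays above both unexposed arrays, beside 7.74% of all kept genes. The same held for 3 of 26 in air arrays, beside 6.79%. All of these members were cytosolic. No member had all 7 arrays of an arm below both unexposed arrays, beside 2.19% of all kept genes in ethanol and 1.91% in air.

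On the low side, ValRS-m, the mitochondrial valyl enzyme, had 5.06 to 5.54 in ethanol arrays (median 5.20) and 5.16 to 5.33 in air arrays (median 5.23). The unexposed arrays disagreed, with 5.64 in A and 5.20 in B, so that the exposed arrays lay below A and around B. The difference was -0.18 (SE 0.12) for both ethanol (adjusted p = 0.669) and air (adjusted p = 0.914). CysRS-m differed from unexposed by -0.19 (SE 0.17, adjusted p = 0.825; -0.11 without the 90 min array) after ethanol and by -0.00 (SE 0.17, adjusted p = 1.0) after air.

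For 8 amino acids both the cytosolic and the mitochondrial gene were kept, GluProRS being paired with ProRS-m for proline. The cytosolic difference from unexposed was the greater in 8 of 8 of these pairs after ethanol and in 7 of 8 after air. The cysteine pair stood furthest apart after ethanol, with 0.20 for CysRS and -0.19 for CysRS-m. The tyrosine pair did so after air, with 0.23 for TyrRS and -0.17 for TyrRS-m. Leucine was the exception after air, with 0.01 for LeuRS and 0.21 for LeuRS-m. Between ethanol and air the cytosolic difference was the greater in 7 of 8 pairs, tyrosine being the exception, and in the middle window in 8 of 8, by as little as 0.00 for valine. It was the greater in 7 of 8 pairs in the late window, but in 4 of 8 in the early window (down to -0.42 for serine) and for 4 of 8 slopes of ethanol minus air. These counts are a description with no test, since the pairs share their arrays.

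**Figure D3:**
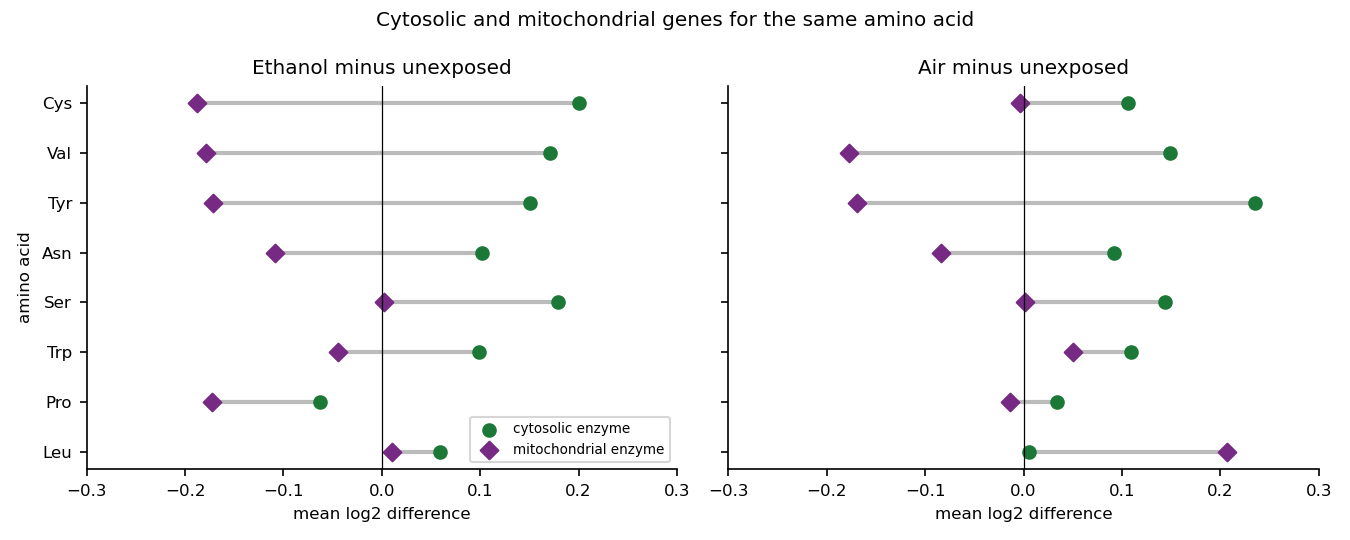
Mean log2 difference from the 2 unexposed arrays after ethanol (left) and after air (right) for the cytosolic (circles) and mitochondrial (diamonds) enzyme of the same amino acid, joined by a line. After ethanol every circle lies to the right of its diamond, and after air leucine alone is turned round (0.01 for LeuRS, 0.21 for LeuRS-m).

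Over the hours of recovery, most members had a slope above 0 in each arm, ValRS, AlaRS, LysRS and SerRS among them, and no slope passed the test. Within the ethanol arm limma called 0 of 26 members, beside 3.23% of all genes, and within the air arm 0 of 26, beside 0%. At an unadjusted p under 0.05 there were 2 members within ethanol and 6 within air, beside 20% and 10.1% of all genes. These were ValRS and SerRS within ethanol, and LysRS, AlaRS, ValRS, TyrRS, SerRS-m and LeuRS-m within air. The air slope was 0.13 per hour for SerRS-m (SE 0.04, adjusted p = 0.425) and 0.11 for LeuRS-m (SE 0.05, adjusted p = 0.477). The slope was above 0 for 17 of 26 members in ethanol (11 cytosolic, 6 mitochondrial) and for 24 of 26 in air (14 cytosolic, 10 mitochondrial). Of all genes, 44.4% had a slope above 0 in ethanol and 80.5% in air. Under median scaling the air counts were 8 of 16 cytosolic and 6 of 10 mitochondrial genes.

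ValRS, the valyl enzyme, had 6.74, 6.61, 6.16, 6.56, 6.90, 7.23 and 7.05 in the ethanol arrays in order of time, against 6.61, 6.64, 6.38, 6.60, 6.84, 7.12 and 6.89 in the air arrays. Both arms were lowest at 60 min and highest at 180 min. The slope was 0.19 per hour in ethanol (SE 0.08, adjusted p = 0.235) and 0.14 per hour in air (SE 0.05, adjusted p = 0.442). AlaRS, the alanyl enzyme, had 6.91, 6.81, 6.62, 7.0, 6.82, 7.06 and 7.12 in the ethanol arrays, against 6.71, 6.59, 6.91, 6.86, 6.98, 6.89 and 7.20 in the air arrays. Its slope was 0.09 per hour in ethanol (SE 0.04, adjusted p = 0.339) and 0.12 per hour in air (SE 0.04, adjusted p = 0.398).

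LysRS, whose values are given above, was highest at 210 min in both arms, with slopes of 0.04 per hour in ethanol (SE 0.03, adjusted p = 0.474) and 0.11 per hour in air (SE 0.03, adjusted p = 0.398). Without the 210 min array the air slope was 0.07. SerRS had 9.13 in the ethanol array of 210 min, against 8.71 to 8.88 in the other ethanol arrays, and 9.16 in the air array of 210 min, against 8.68 to 8.84 in the other air arrays. The SerRS slope of 0.08 per hour in ethanol (SE 0.04, adjusted p = 0.250) was 0.04 without the 210 min array.

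On the low side within ethanol were GlnRS, with a slope of -0.06 per hour (SE 0.04, adjusted p = 0.528; -0.01 without the 0 min array and -0.11 without the 210 min array), and SerRS-m, with -0.08 per hour. SerRS-m ran from 6.93 at 0 min to 6.12 at 90 min and back to 6.55 at 210 min in the ethanol arrays, and without the 0 min array its slope was 0.03. Within air, AsnRS (-0.03 per hour) and ArgRS (-0.00 per hour) were the 2 members with a slope below 0, and AsnRS, the asparaginyl enzyme, kept between 9.03 and 9.28 in the air arrays.

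A single line for both arms, fitted over 14 arrays, was added after these courses were seen. It called 0 of 26 members in limma, beside 4.27% of all genes, and 4 members had an unadjusted p under 0.05, beside 18.5%. The slopes were 0.11 per hour for AlaRS (SE 0.03, adjusted p = 0.0619), 0.08 for LysRS (SE 0.02, adjusted p = 0.0620), 0.16 for ValRS (SE 0.05, adjusted p = 0.0713) and 0.07 for SerRS (SE 0.03, adjusted p = 0.190). The mitochondrial genes all had a slope above 0 in this fit (10 of 10, median 0.03), as did 60.6% of all genes, and 7 of 10 did under median scaling. Without the 210 min pair the slopes were 0.08 for AlaRS (adjusted p = 0.322), 0.05 for LysRS (adjusted p = 0.364) and 0.01 for SerRS (adjusted p = 0.948). The ValRS slope was 0.12 without the 180 min pair (adjusted p = 0.246).

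**Figure D4:**
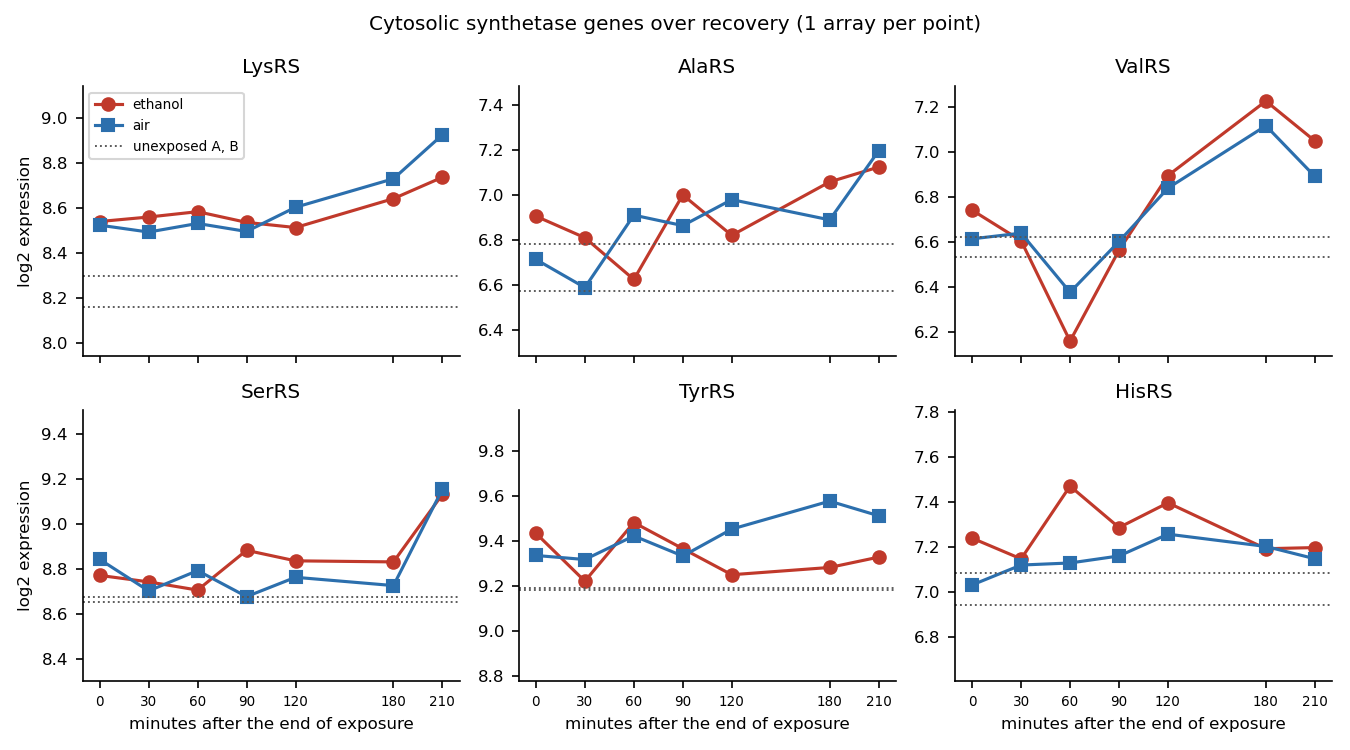
Log2 expression of 6 cytosolic genes over minutes after exposure in ethanol (circles) and air (squares), 1 array per point, with unexposed A and B as dotted lines; the vertical axis spans the same height in every panel. ValRS is lowest at 60 min and highest at 180 min in both arms, SerRS stands out at 210 min in both, and LysRS lies above both unexposed arrays throughout.

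Across the 16 arrays the cytosolic genes had narrower and the mitochondrial genes wider ranges than the median kept gene. The distance between the highest and the lowest array had a median of 0.51 for cytosolic genes and 0.79 for mitochondrial genes, beside 0.65 for all kept genes. AsnRS was the steadiest, with a range of 0.26, and TyrRS-m the least steady, with 1.24. The other wide ranges were those of ValRS (1.07), ProRS-m (0.99) and LeuRS-m (0.89). The classes also differ in level. TyrRS-m and ProRS-m averaged 5.59 and 5.92 over the arrays, below the lowest cytosolic mean (LeuRS, 6.41). Ranges were not compared among genes of similar level.

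The 4 genes that were not kept are all mitochondrial. MetRS-m lay between 2.35 and 2.52 and GluRS-m between 2.88 and 3.23 over all arrays, values at which the array carries little signal. ArgRS-m spanned 3.20 to 4.09. IleRS-m had 4.10 in the ethanol array of 210 min, against 3.21 in the air array of that time, and did not reach log2 4 elsewhere. None of them was tested.

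Among other genes of tRNA charging and elongation, none passed the test between ethanol and air. Of 10 aminoacylation partners written down (the PheRS subunits, the AIMP scaffold proteins, the glutamyl-tRNA amidotransferase subunits, Dtd and Slimp), 9 were on the array and kept. Between ethanol and air 0 of 9 were called, beside 0.691% of all genes. Of the 9, 1 was above 0 and 8 were below, with a median of -0.03. The 2 with the smallest p were AIMP2, a scaffold of the multi-synthetase complex (-0.07, SE 0.05), and Slimp, a seryl-tRNA synthetase-like mitochondrial protein (-0.07, SE 0.07). Of 12 translation elongation factors, 8 were kept and 0 were called, with 1 above 0 and 7 below and a median of -0.05. The mitochondrial factor mEFTu2, which brings charged tRNA to the ribosome, averaged 9.14 ± 0.09 in ethanol arrays and 9.28 ± 0.08 in air arrays (SD, n = 7 each). It was lower in ethanol at 7 of 7 times (-0.14, SE 0.05, adjusted p = 0.305), beside 1.55% of all kept genes. The unexposed arrays had 9.06 and 9.01, below every ethanol and air array. The partner of mEFTu2, mEFTs, had a difference of -0.12 (SE 0.06, adjusted p = 0.455). Neither list had a called gene in any of the other comparisons.

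In the list of amino acid response and supply genes, limma called 3 of 14 kept genes (of 16 written) higher in ethanol than in air, beside 0.691% of all genes called. The list was chosen with earlier results of these data known, so this count is a description and not an independent result. Nmdmc, a mitochondrial enzyme of the folate pathway, averaged 10.77 ± 0.32 in ethanol arrays and 9.61 ± 0.27 in air arrays (SD, n = 7 each), a difference of 1.16 (SE 0.16, adjusted p = 0.0209). AsnS, which makes asparagine, averaged 8.51 ± 0.35 in ethanol arrays and 7.70 ± 0.12 in air arrays, a difference of 0.81 (SE 0.12, adjusted p = 0.0240). The serine-forming phosphatase aay averaged 12.28 ± 0.18 in ethanol arrays and 11.67 ± 0.11 in air arrays, a difference of 0.61 (SE 0.10, adjusted p = 0.0350). Each was higher in ethanol at 7 of 7 times, beside 2.28% of all kept genes.

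AsnRS, the enzyme that uses asparagine, differed between ethanol and air by 0.01 (SE 0.06), and the seryl enzymes SerRS and SerRS-m by 0.03 and 0.00. The sensor kinase Gcn2 (-0.29, SE 0.14, adjusted p = 0.442) and the transcription factor crc (-0.02, SE 0.05, adjusted p = 0.931) did not pass. AsnS lost its call without the pair of 30, 60, 90, 120 or 210 min (adjusted p 0.0707 to 0.103) and Nmdmc without that of 60, 90, 120, 180 or 210 min (0.0525 to 0.0847). The aay call was lost without any pair but that of 180 min (0.0561 to 0.144) and with the body-tissue covariate (0.105). All 3 calls were lost with no filter (0.170 to 0.191) and without the 0, 60 and 120 min pairs (0.0935 to 0.375), where the differences were 0.85 for AsnS, 1.19 for Nmdmc and 0.47 for aay.

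Elsewhere in that list, Nmdmc (1.63), AsnS (1.04) and aay (0.68) rose after ethanol against unexposed, with adjusted p of 0.0101, 0.0178 and 0.0169. In the late window Nmdmc (1.52, adjusted p = 0.0190) and Shmt (0.75, adjusted p = 0.0350), an enzyme that interconverts serine and glycine, were higher in ethanol than in air. Within the ethanol arm Shmt (0.37 per hour, adjusted p = 0.0461) and Nmdmc (0.23, adjusted p = 0.0485) rose with time, and the amino acid transporter mnd fell by 0.34 per hour (adjusted p = 0.0390). With both arms on 1 line, Sesn had a slope of 0.16 per hour (adjusted p = 0.0154).

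**Figure D5:**
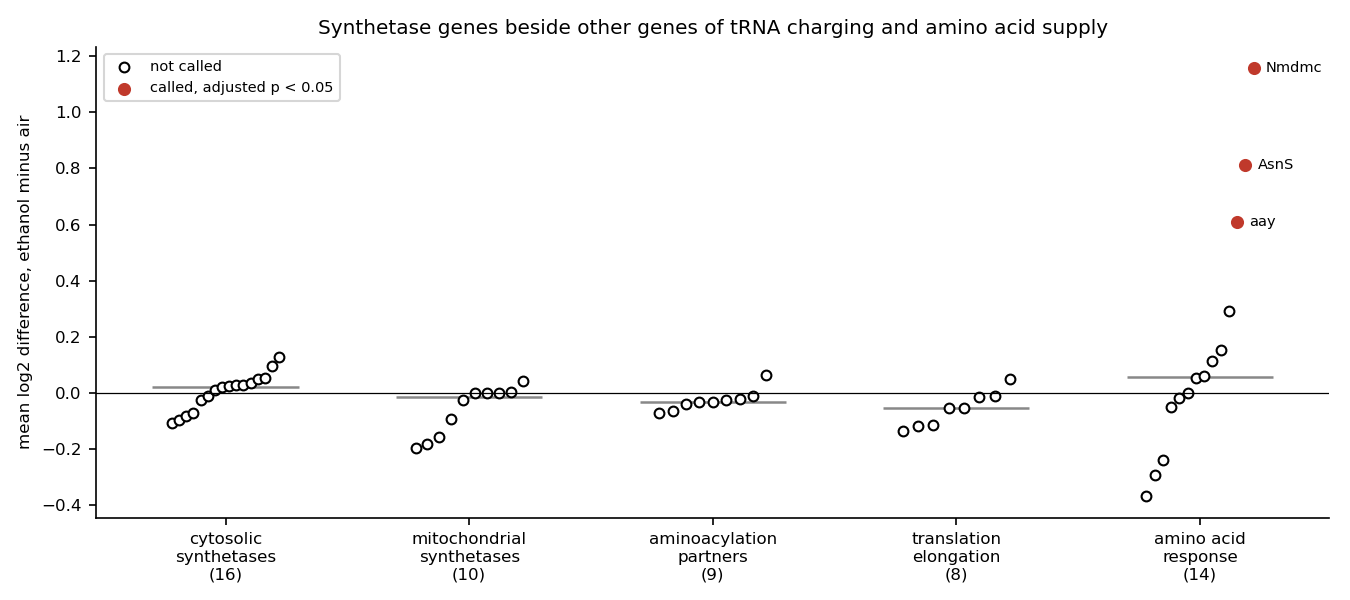
Mean log2 difference between ethanol and air (7 pairs) for each kept gene of 5 groups, with the group median as a grey line and called genes filled. The 26 synthetase genes, 9 aminoacylation partners and 8 elongation factors lie close to 0, and Nmdmc (1.16), AsnS (0.81) and aay (0.61) stand above them.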

How the data were processed

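The deposited values are log2 expression values that the authors computed with GCRMA (background correction by probe sequence, quantile normalization, summary per probe set), per the submitters' processing notes; the version is not given in the sources used here. Of 18952 probe sets, 183 controls were left out. Symbols came from the array annotation, updated by gene ID through the RefSeq gene table; 13647 probe sets had 1 symbol, 402 several and 4720 none. The probe set with the highest mean stood for a gene, and a probe set without a single symbol stood for itself. A gene was kept at log2 4 in at least 3 of 16 arrays (8110 genes, 7104 of them with a single symbol).

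Differences were tested with limma 3.58.1 (lmFit and eBayes, R 4.3.3) over all kept genes, with Benjamini-Hochberg adjustment over all of them, and called at adjusted p < 0.05. Ethanol minus air had the time point as a factor. Its windows shared 1 spread, and its slope was per hour. Differences from unexposed came from a fit of 3 groups over 16 arrays, whose spread includes change over time; slopes within an arm used its 7 arrays. With 1 pool per exposure and time, p-values measure the spread of these arrays, and their number limits the precision.

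Members named with array values had the 3 smallest p in each direction for ethanol minus air and the 2 smallest for ethanol minus unexposed and for each slope within an arm; members singled out in the windows, the shared slope and the air comparison with unexposed were chosen after their values were seen. The members and gene lists were chosen with earlier results of these data known. Alternatives covered the filter, scaling, probe sets, variances, threshold, matching by time, body-tissue transcripts and arrays left out; the shared slope was added after seeing the data. The models were tested on simulated data. Some list genes are not analysed here. Tables and figures were made in Python 3.11.15 with pandas 2.3.3, numpy 2.4.6 and matplotlib 3.10.9.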

Additional observations from a re-analysis of the deposited data

Results flagged for a closer look

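For each kept synthetase gene, the 7 ethanol values, 7 air values and 7 ethanol minus air differences were searched for 1 value far from the rest, which gave 78 sets of 7 and 9 with such a value. Chance marks about 1 in 20 sets. Among the levels, SerRS stood apart at 210 min in both arms, with 9.133 in the ethanol array (the others 8.708 to 8.884) and 9.156 in the air array (the others 8.679 to 8.844). PheRS-m had 9.415 in the ethanol array of 0 min (the others 8.969 to 9.150), and AspRS-m had 8.150 in the air array of 180 min (the others 7.594 to 7.782). Both of those arrays stood high over all kept genes. ArgRS had 6.558 in the air array of 120 min (the others 6.663 to 6.732), an array with body-tissue transcripts.

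Among the ethanol minus air differences, 180 min gave -0.434 for GlnRS (the others -0.119 to 0.094) and -0.416 for TrpRS (the others -0.064 to 0.134), when the median kept gene differed by -0.17. AsnRS differed by -0.242 at 30 min (the others -0.009 to 0.157) and GlyRS by 0.299 at 210 min (the others -0.068 to 0.074).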

How the results depend on the processing

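No synthetase gene was called between ethanol and air, against unexposed or within an arm under any alternative run, with 2 exceptions. Without the replicate block, with time as a linear term, 1 member (CysRS-m) was called in the middle window, and at adjusted p < 0.10 the slope shared by both arms called 3 (AlaRS, LysRS and ValRS). Without the replicate block of matched times, the count between ethanol and air stayed at 0, whether time was left out or a linear term. Of 925 alternative values, 755 were classed as unchanged. For single genes this meant the same direction and side of the threshold, and for counts a move of no more than 1.5 times. For class medians it meant a move smaller than the SD of the medians by time. By that rule the mitochondrial median without the 0, 60 and 120 min pairs, given above, was classed as unchanged. Part of the tally was fixed in advance. A change of filter, variances or threshold leaves the size of a difference as it is, and counts that stayed at 0 were classed as unchanged. The 755 therefore do not measure stability. Changes of sign in a class median were not counted as reversals. The mitochondrial median between ethanol and air was -0.014 as deposited and 0.009 under quantile scaling, and it is not among the 5 below. 5 reversed: ValRS-m against unexposed after ethanol (0.038 without unexposed A; leaving out 1 array gave -0.395 to 0.038), SerRS-m within ethanol (0.026 without the 0, 60 and 120 min arrays; leaving out 1 array gave -0.176 to 0.033, the highest without 0 min) and ArgRS within air (-0.019 to 0.0087 on leaving out 1 array, above 0 without the 30 or the 120 min array). The other 165 were counts that moved by over 1.5 times, all but the 2 above over the whole array or at an unadjusted p. The whole-array count between ethanol and air was 56 and ranged from 0 (no filter) to 111 (adjusted p < 0.10), with 8 to 104 when 1 pair was left out, 24 without the 0, 60 and 120 min pairs and 46 with the body-tissue covariate. The counts ranged from 0 to 151 for the slope of ethanol minus air, 0 to 16, 0 to 220 and 0 to 189 for the early, middle and late windows, 0 to 142 for ethanol and 0 to 12 for air against unexposed, 0 to 638 within ethanol, 0 to 1 within air and 0 to 596 for the shared slope. The cause of these shifts was not tested.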
